A study of Homo sapiens with 4 samples.

Results

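Transcripts of 33 genes that take glucose into the cell and run it through glycolysis, lactate formation and the pentose phosphate pathway were followed in NALM6, an established human cell line from an acute lymphoblastic leukemia of precursor B cells. The genes were chosen by name as the textbook steps of these pathways, with earlier results of these data known. Of the 33, 31 had a row among the 20665 genes of the deposited table, and all 31 entered the test; PFKFB2 and SLC16A3 were not analysed here.

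The data are 4 libraries of total RNA, 2 in each group. The vehicle cells received DMSO, the solvent, for 45 min. The AICAR cells were held in medium lacking glucose for 24 h, and 15 mM AICAR was then added for 45 min. The labels mention the glucose-free period for the AICAR cells only, so AICAR and glucose deprivation cannot be told apart in these groups. Both groups come from the same line, grown in RPMI medium with fetal bovine serum. The labels do not say that the libraries of a group came from separate cultures, so p-values measure the spread between these libraries, which may be technical.

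Glucose enters blood cells through the transporters GLUT1 and GLUT3 and is trapped by hexokinase. Upper glycolysis splits it into triose phosphates at the cost of ATP, lower glycolysis recovers ATP and yields pyruvate, and lactate dehydrogenase with the monocarboxylate transporters disposes of pyruvate as lactate. The pentose phosphate pathway branches off at glucose 6-phosphate and provides NADPH and the ribose of nucleotides. AICAR is taken up and phosphorylated to ZMP, an AMP mimic that activates the kinase AMPK, a sensor of low energy.

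Depth ran from 32318376 to 36769116 counts per library, of which 77.42% to 79.47% fell on protein-coding genes and 14.95% to 16.5% on the abundant RNAs RN7SL1, RN7SL2 and RN7SK. The 13 precursor B markers measured of 14 listed had summed levels of 3923 to 3975 CPM with vehicle and 4115 to 4215 CPM with AICAR, where CPM is the count scaled to library size by TMM factors. The sum hides moves in both directions. In the test described below, 6 of the 13 rose, with log2 fold changes up to 0.28 (VPREB3), and 4 did not pass. The 3 that fell were RAG1 (-0.384), RAG2 (-0.226) and EBF1 (-0.199). The 3 T cell markers measured of 7 summed to 4.14 to 4.62 CPM with vehicle and 4.17 to 4.25 CPM with AICAR. The 7 myeloid and erythroid markers measured of 9 summed to 2.20 to 2.61 CPM with vehicle and 3.41 to 3.50 CPM with AICAR. No measured marker was at 0 in all libraries, and the part of these markers in the results below was not tested.

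Most enzymes of the pathway had slightly higher transcript levels with AICAR, while both glucose transporter genes and PFKFB3, whose enzyme sets fructose 2,6-bisphosphate, had lower ones. Of the 31 genes tested, 21 rose, 3 fell and 7 did not pass (quasi-likelihood test in edgeR, adjusted p under 0.05 by Benjamini-Hochberg over all 13626 genes tested). Among all genes tested, 39.1% passed, 19.4% as rises and 19.7% as falls. The rises were small, from 1.08-fold to 1.28-fold. The members' median log2 fold change was 0.175, against -0.002 over all tested genes. Most well-expressed genes rose as well. Protein-coding genes from 100 to 1000 CPM had a median of 0.144 with 59.9% rises, and those above 1000 CPM 0.211 with 79.6%. Against the median of all protein-coding genes of their level class, 18 of the 31 members were higher. The libraries of the groups did not overlap for 27 of the 31, as for 69.2% of all tested genes. With libraries scaled by total counts alone, 13 rose and 5 fell, where 10.2% of all tested genes rose and 23.0% fell. In RNA pooled over many cells, a change in the share of cells that carry a transcript and a change in the amount per cell cannot be told apart, and every value is relative to the other transcripts of its library.

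The 31 genes together took 2.44% and 2.41% of the protein-coding counts in the vehicle libraries and 2.72% and 2.75% in the AICAR libraries. GAPDH alone made up 27.4% to 28.3% of the members' counts in a library, ENO1 15.5% to 15.7% and PKM 8.69% to 8.92%.

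**Figure D1:**
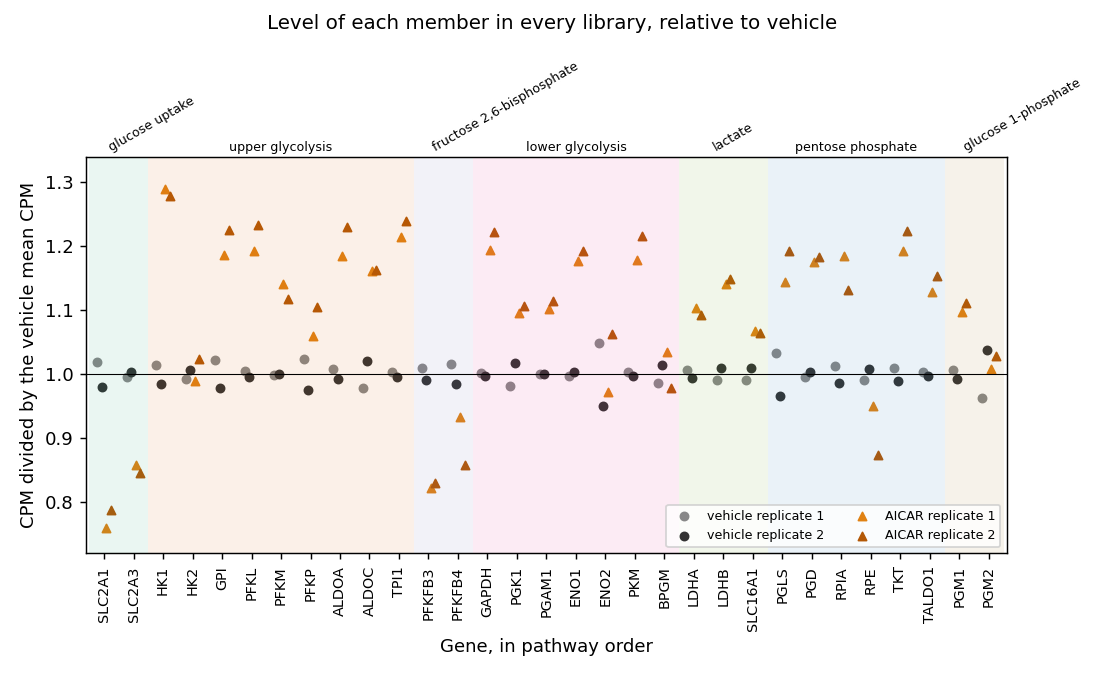
CPM of each of the 31 genes in every library, divided by the vehicle mean of that gene, in pathway order; circles are vehicle libraries, triangles AICAR libraries and shading marks the role. The triangles of SLC2A1, SLC2A3, PFKFB3, PFKFB4 and RPE lie below their circles, and those of most enzymes lie above.

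The windows upstream of 4 member genes are printed because they show both outcomes, SLC2A1 and PFKFB3 having fallen and GAPDH and LDHA having risen. Each holds the 250 bases before a transcription start, 5′ to 3′ on the strand of the gene, from RefSeq on build GRCh38.p14. Capitals mark ACGTG or its reverse complement CACGT, the core to which the hypoxia factor HIF binds; a run of CACGTG, the E-box bound by MYC, USF and MLX factors, contains both.
SLC2A1, chr1:42958869-42959118, minus strand: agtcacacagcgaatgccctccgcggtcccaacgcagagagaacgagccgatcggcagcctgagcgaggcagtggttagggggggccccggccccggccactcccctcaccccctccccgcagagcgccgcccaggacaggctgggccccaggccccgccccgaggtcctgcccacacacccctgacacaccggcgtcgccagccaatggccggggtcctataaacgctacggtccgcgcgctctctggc
PFKFB3, chr10:6202682-6202931, plus strand, the downstream of its 2 listed starts: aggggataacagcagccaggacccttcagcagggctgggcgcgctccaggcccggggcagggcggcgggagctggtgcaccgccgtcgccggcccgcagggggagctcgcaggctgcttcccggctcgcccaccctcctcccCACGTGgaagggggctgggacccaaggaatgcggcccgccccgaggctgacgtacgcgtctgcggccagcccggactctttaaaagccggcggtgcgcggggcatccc
GAPDH, chr12:6535014-6535263, plus strand: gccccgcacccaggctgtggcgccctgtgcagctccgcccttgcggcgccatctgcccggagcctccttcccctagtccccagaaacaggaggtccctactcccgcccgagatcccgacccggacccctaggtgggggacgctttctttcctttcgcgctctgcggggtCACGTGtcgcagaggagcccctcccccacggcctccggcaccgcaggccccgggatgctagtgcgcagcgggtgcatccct
LDHA, chr11:18394313-18394562, plus strand, the upstream of its 2 listed starts: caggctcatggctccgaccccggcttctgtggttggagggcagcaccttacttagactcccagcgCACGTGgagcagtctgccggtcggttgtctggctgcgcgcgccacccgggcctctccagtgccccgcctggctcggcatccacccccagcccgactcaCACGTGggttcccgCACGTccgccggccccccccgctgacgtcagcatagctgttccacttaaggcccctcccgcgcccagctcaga

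The SLC2A1 window held no ACGTG on either strand, the GAPDH and PFKFB3 windows 1 E-box each, and the LDHA window 2 E-boxes among 3 marked places. The other listed window of PFKFB3 and that of LDHA, not printed, held neither motif. RefSeq listed starts for 29 of the 31 genes, with 52 windows in all, some overlapping. ACGTG on either strand was found in 36.5% of these windows and in 18.5% of the 35116 windows of all genes, and CACGTG in 13.5% and 6.34%. The share of G and C bases ran from 35.2% to 81.6% over the member windows. It was not computed for the windows of all genes, so the 2 sets were not matched in base composition. Counted by gene, 16 of 29 had ACGTG in at least 1 window: 11 of the 21 that rose, 1 of the 2 matched genes that fell and 4 of the 6 that did not pass. CACGTG was rarer, in 7 of 29 genes. These were 4 of the 21 that rose, 1 of the 2 that fell and 2 of the 6 that did not pass. GAPDH and LDHA, both printed above, are among those 4, so the printed windows do not stand for the genes that rose. A gene with more windows has more chances of a match, and the share by gene over all genes was not computed. Of the 20 members with a single window, 8 had ACGTG. These are matches of letters in a short window and do not mark a bound site; no binding was measured.

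Both glucose transporter genes fell. Falls made up 19.7% of all tested genes and 24.2% of protein-coding genes from 10 to 100 CPM, the level class of both. SLC2A1 (ENSG00000117394), which encodes GLUT1, had 53.7 and 51.6 CPM in the vehicle libraries and 40.0 and 41.5 CPM in the AICAR libraries. Both AICAR values lay below both vehicle values, and the means of 52.65 ± 1.44 and 40.8 ± 1.08 CPM (SD, n = 2) gave a 1.29-fold fall, or -0.37 ± 0.048 on the log2 scale (SE; edgeR adjusted p = 0.000134). SLC2A1 kept its call under every alternative tried. SLC2A3 encodes GLUT3, a transporter with a high affinity for glucose. It had 11.44 and 11.53 CPM with vehicle and 9.87 and 9.72 CPM with AICAR, a log2 difference of -0.23 ± 0.0823 (SE; edgeR adjusted p = 0.0448). That call was lost in 11 of the alternatives, among them DESeq2 (adjusted p = 0.285) and leaving out any of the 4 libraries (adjusted p from 0.0769 to 0.169). A processed pseudogene, SLC2A3P1, held 30.5% to 35.5% as many counts as SLC2A3, so reads may be split between these near-identical sequences and the count is uncertain.

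In upper glycolysis 8 of 9 genes rose and none fell, with a median log2 fold change of 0.27. Of all tested genes 19.4% rose, and of protein-coding genes from 100 to 1000 CPM 59.9% rose. HK1 (ENSG00000156515), the hexokinase found in most tissues, had 61.1 and 59.2 CPM with vehicle and 77.6 and 76.9 CPM with AICAR. This was the largest rise among the 31 genes, 1.28-fold from 60.15 ± 1.29 to 77.2 ± 0.508 CPM (SD, n = 2), or 0.36 ± 0.0411 on the log2 scale (SE; edgeR adjusted p = 5.195e-05). HK2, the inducible hexokinase that is raised in many tumours, had 115 and 117 CPM with vehicle and 115 and 119 CPM with AICAR. Its groups overlapped, and the 95% interval of its log2 fold change ran from -0.07 to 0.09, which does not reach the fold change of HK1.

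GPI, which converts glucose 6-phosphate to fructose 6-phosphate, had 487 and 466.5 CPM with vehicle and 566 and 584 CPM with AICAR, a log2 fold change of 0.27. The phosphofructokinase subunits commit the sugar to glycolysis. PFKL, the liver-type subunit, had 315 and 312 CPM with vehicle and 374 and 387 CPM with AICAR, a 1.21-fold rise (log2 fold change 0.28 ± 0.0382, SE; edgeR adjusted p = 0.00019). PFKM, the muscle type, had 129.6 and 129.9 CPM with vehicle and 148 and 145 CPM with AICAR. PFKP, the platelet type, had 206 and 196 CPM with vehicle and 213 and 222 CPM with AICAR, the smallest of the rises (log2 fold change 0.11, edgeR adjusted p = 0.0472). The 3 subunits thus followed the order PFKL, PFKM, PFKP in fold change, and the intervals of PFKL, 0.195 to 0.363, and PFKP, 0.023 to 0.205, overlapped.

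ALDOA, the main aldolase, had 1253 and 1234 CPM with vehicle and 1473 and 1530 CPM with AICAR. ALDOC, the aldolase best known from brain, had 144 and 150.4 CPM with vehicle and 171.1 and 171.4 CPM with AICAR. Their log2 fold changes were 0.27 and 0.22. TPI1, which interconverts the triose phosphates, had 987 and 979 CPM with vehicle and 1193 and 1218 CPM with AICAR, a 1.23-fold rise. In each of these genes both AICAR libraries exceeded both vehicle libraries. The PFKP call was lost in 9 of the alternatives, among them leaving out vehicle replicate 2 (0.07) or either AICAR library (0.15 and 0.09), and the PFKM and PFKP calls were lost with total counts alone (0.12 and 0.05).

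The bifunctional enzymes that make and remove fructose 2,6-bisphosphate, the strongest activator of phosphofructokinase, did not rise with the phosphofructokinase genes. PFKFB3, the isoform with the highest kinase activity, had 23.3 and 22.9 CPM with vehicle and 19.0 and 19.2 CPM with AICAR. Its groups did not overlap, and it fell 1.21-fold, or -0.275 ± 0.0606 on the log2 scale (SE; edgeR adjusted p = 0.00387). PFKFB4 had 28.89 and 28.00 CPM with vehicle and 26.6 and 24.4 CPM with AICAR. Its log2 fold change of -0.16 did not pass (edgeR adjusted p = 0.0576), though PFKFB4 was called lower without vehicle replicate 2 (-0.19), without AICAR replicate 1 (-0.22), with total counts alone (-0.22), with a minimum mean of 10 CPM (-0.20), with protein-coding genes alone (-0.165) and with the replicate number as a block (-0.16, adjusted p = 0.0465).

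In lower glycolysis 5 of 7 genes rose and none fell, with a median log2 fold change of 0.148. Rises made up 19.4% of all tested genes and 79.6% of protein-coding genes above 1000 CPM. GAPDH, which makes 1,3-bisphosphoglycerate and NADH and had the highest CPM of the members, had 5134 and 5111 CPM with vehicle and 6115 and 6264 CPM with AICAR. It rose 1.21-fold (log2 fold change 0.27 ± 0.0365, SE; edgeR adjusted p = 0.000162). PGK1, which makes the first ATP of the pathway, had 1133 and 1175 CPM with vehicle and 1264 and 1278 CPM with AICAR. PGAM1, the phosphoglycerate mutase, had 629.0 and 628.7 CPM with vehicle and 693 and 701 CPM with AICAR. The log2 fold changes of PGK1 and PGAM1 were 0.14 and 0.15, and the calls were lost in 6 and 4 of the alternatives, among them leaving out either AICAR library, with values from 0.13 to 0.16, and total counts alone (0.08 and 0.09).

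ENO1, the main enolase, had 2886 and 2905 CPM with vehicle and 3409 and 3455 CPM with AICAR, a log2 fold change of 0.245. PKM, the pyruvate kinase of most dividing cells, had 1628 and 1619 CPM with vehicle and 1913 and 1974 CPM with AICAR, a log2 fold change of 0.26. Within lower glycolysis, GAPDH, ENO1 and PKM had larger fold changes than PGK1 and PGAM1. The table gives 1 value per gene, so the PKM1 and PKM2 splice forms were not analysed here. ENO2, the enolase of neurons, had 11.9 to 13.1 CPM with vehicle and 12.2 to 13.3 CPM with AICAR. BPGM, which makes 2,3-bisphosphoglycerate, had 16.3 to 16.8 CPM with vehicle and 16.2 to 17.2 CPM with AICAR. The groups overlapped for both, with 95% intervals of the log2 fold change from -0.16 to 0.215 for ENO2 and from -0.145 to 0.16 for BPGM.

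At the lactate step both dehydrogenase genes rose. Rises made up 19.4% of all tested genes, 59.9% of protein-coding genes from 100 to 1000 CPM and 79.6% of those above 1000 CPM. Both genes had log2 fold changes below the median of their level class, LDHA 0.135 against 0.144 and LDHB 0.195 against 0.211. LDHA, the subunit that dominates in glycolytic tissue, had 777 and 768 CPM with vehicle and 853 and 843 CPM with AICAR. LDHB, the subunit that dominates in heart, had 1071 and 1090.0 CPM with vehicle and 1233 and 1241 CPM with AICAR. LDHB rose 1.15-fold (log2 fold change 0.195 ± 0.0374, SE; edgeR adjusted p = 0.00171) and LDHA 1.10-fold (edgeR adjusted p = 0.0135). The LDHA call was lost in 5 of the alternatives, among them without AICAR replicate 1 (0.13), without AICAR replicate 2 (0.145) and with total counts alone (0.075), and 5 pseudogenes named after LDHA held 1.56% to 2.0% as many counts as LDHA. SLC16A1, which encodes the lactate transporter MCT1, had 164 and 167 CPM with vehicle and 176.6 and 176.0 CPM with AICAR. Its AICAR values were both higher, but its log2 fold change of 0.09 did not pass (edgeR adjusted p = 0.0709).

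In the pentose phosphate pathway 5 of 6 genes rose and none fell, with a median log2 fold change of 0.22. Among protein-coding genes, 23.4% rose from 10 to 100 CPM and 59.9% from 100 to 1000 CPM, against 19.4% of all tested genes. Of the oxidative branch, PGLS, the lactonase, had 49.6 and 46.4 CPM with vehicle and 54.9 and 57.3 CPM with AICAR. PGD, which makes ribulose 5-phosphate and NADPH, had 146.7 and 147.9 CPM with vehicle and 173 and 174 CPM with AICAR. Their log2 fold changes were 0.23 and 0.24, and the groups did not overlap for either gene.

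Of the branch without oxidation, TKT, the transketolase, had 721 and 707 CPM with vehicle and 851 and 874 CPM with AICAR. It led the pathway with a 1.21-fold rise (log2 fold change 0.27 ± 0.0383, SE; edgeR adjusted p = 0.000222). TALDO1, the transaldolase, had 176 and 175 CPM with vehicle and 198 and 203 CPM with AICAR, a log2 fold change of 0.19. RPIA, the ribose 5-phosphate isomerase, had 30.45 and 29.7 CPM with vehicle and 35.6 and 34.0 CPM with AICAR. RPE, the ribulose 5-phosphate epimerase that competes with RPIA for the same substrate, had 36.7 and 37.4 CPM with vehicle and 35.2 and 32.4 CPM with AICAR. The log2 fold changes of RPIA and RPE were 0.21 and -0.13, and RPE did not pass (edgeR adjusted p = 0.0799). RPE was called lower without AICAR replicate 1 (-0.19), with total counts alone (-0.19) and with a minimum mean of 10 CPM (-0.17). RPIA lost its call in 4 of the alternatives, among them without AICAR replicate 1 (0.18), with DESeq2 (0.21) and, as did PGLS, with total counts alone (0.15 and 0.165).

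The phosphoglucomutases link glucose 6-phosphate to glucose 1-phosphate, the entry to glycogen. PGM1 had 114.5 and 113 CPM with vehicle and 125 and 126 CPM with AICAR, and rose with a log2 fold change of 0.14, a call lost in 3 of the alternatives, among them without AICAR replicate 2 (0.14) and with total counts alone (0.08). PGM2, which acts mainly on pentose phosphates, had 116 and 125 CPM with vehicle and 122 and 124 CPM with AICAR. Its groups overlapped, and the 95% interval of its log2 fold change ran from -0.07 to 0.12.

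**Figure D2:**
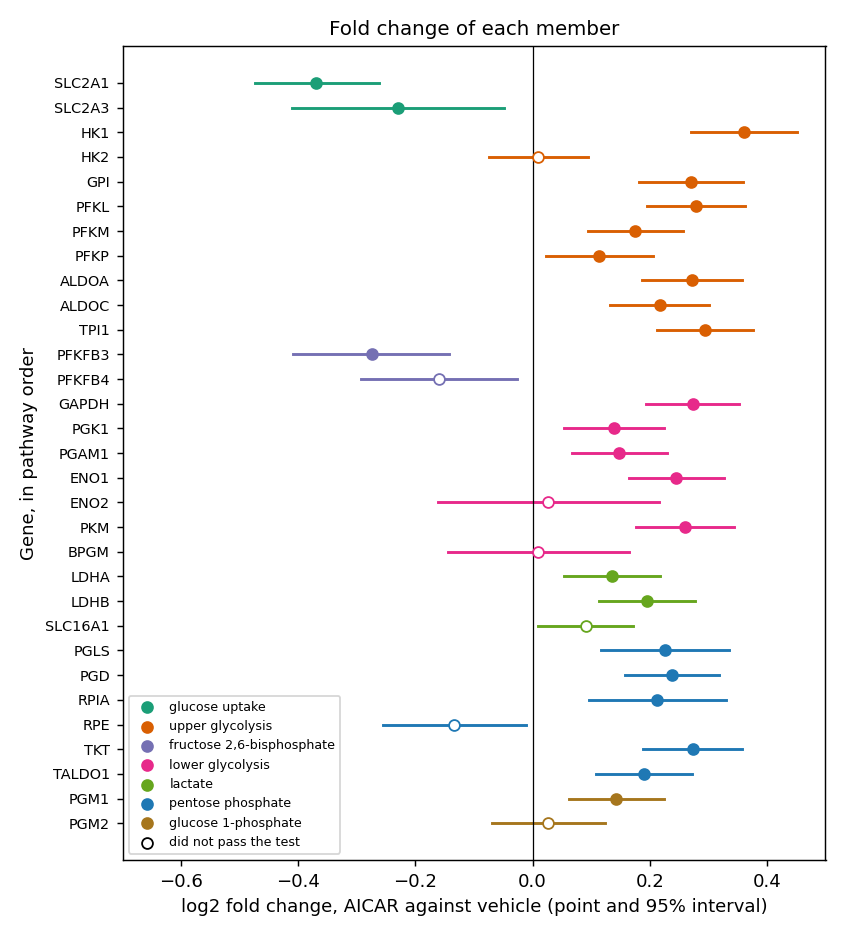
Log2 fold change of each of the 31 genes (AICAR against vehicle) with its 95% interval from edgeR, in pathway order and coloured by role; open points did not pass at an adjusted p under 0.05. Filled points lie to the right of 0 for 21 genes and to the left for SLC2A1, SLC2A3 and PFKFB3.

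The fold change of a member was higher the higher its level, and so did that of protein-coding genes in general. Spearman's rho between mean CPM and log2 fold change was 0.64 over the 31 genes, which share the same 4 libraries. Of 1273 tested protein-coding genes with a mean from 100 to 1000 CPM, 59.9% rose and 9.82% fell, with a median log2 fold change of 0.144. Of the 14 members in that class 11 rose and none fell, with a median of 0.16. Of 113 genes above 1000 CPM, 79.6% rose and the median was 0.21, while all 7 members there rose, with a median of 0.26. From 10 to 100 CPM, 23.4% of 6567 genes rose and 24.2% fell, and of the 10 members 3 rose and 3 fell. Against the median of all genes of their level class, 18 of the 31 members were higher. At 100 CPM and above, most other protein-coding genes rose as well.

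Within its class of 10 to 100 CPM, HK1 stood near the upper edge, with 1.31% of the genes having a larger fold change. PGLS and RPIA were exceeded by 11.6% and 13.5% of that class. SLC2A1, PFKFB3 and SLC2A3 stood on the lower side without being extreme, since 10.8%, 15.2% and 18.5% of the class had a lower fold change. TPI1 had the largest fold change of the 7 members above 1000 CPM, exceeded by 7.96% of that class. Effective transcript length, taken as the ratio of the deposited count to the deposited FPKM, had a Spearman's rho of -0.32 with the fold change over the 31 genes. Protein-coding genes below 1000 bases had a median log2 fold change of 0.125, those from 1000 to 2000 bases 0.02 and those from 2000 to 4000 bases -0.04, against 0.23, 0.215 and 0.09 for the 3, 14 and 13 members of these classes. These length classes mix levels. From 100 to 1000 CPM, 7 members of 1000 to 2000 bases had a median of 0.217, against 0.141 for all genes there. The 6 members of 2000 to 4000 bases had 0.129 against 0.133. Above 1000 CPM the medians were 0.206 against 0.206 below 1000 bases (2 members). They were 0.259 against 0.212 from 1000 to 2000 bases (4 members) and 0.26 against 0.24 from 2000 to 4000 bases (1 member).

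**Figure D3:**
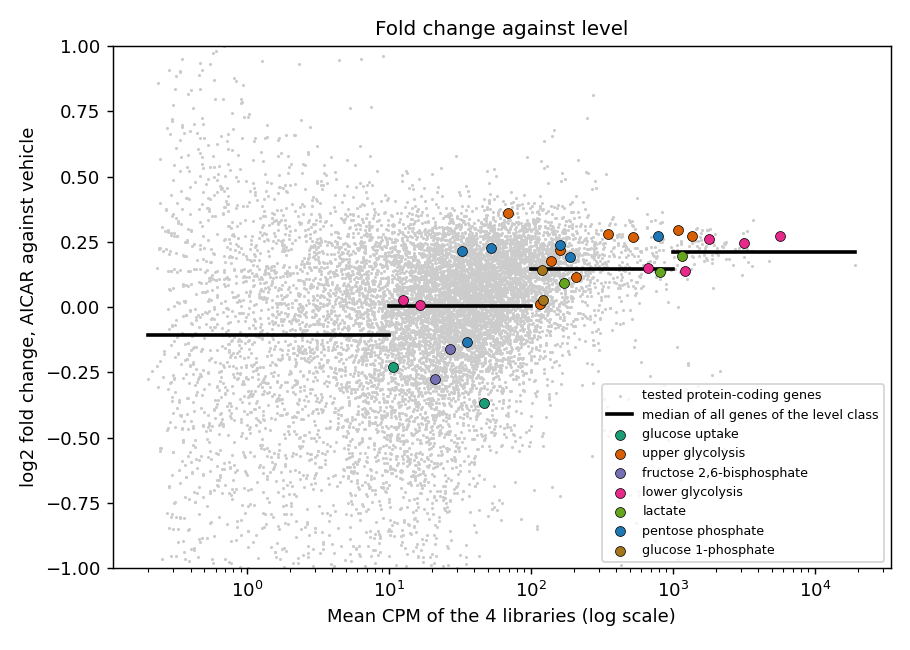
Log2 fold change against mean CPM (log scale) for the tested protein-coding genes (grey; 460 lie outside the plotted range), with the median of each level class as a black bar and the members coloured by role. The bars climb from -0.11 below 10 CPM to 0.21 above 1000 CPM, and the most abundant members lie near them.

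Levels of isoenzymes can be compared per length, on the deposited FPKM values (reads scaled to transcript length and library depth). Hexokinase was the step whose makeup differed most between the group means among the 8 steps with more than 1 member gene. HK1 gave 47.2% and 46.4% of the summed hexokinase FPKM in the vehicle libraries and 56.2% and 52.6% in the AICAR libraries. On FPKM, HK1 thus went from below HK2 to above it. With vehicle, HK1 had 19.5 and 17.9 FPKM and HK2 21.8 and 20.6 FPKM. With AICAR, HK1 had 25.6 and 22.9 FPKM and HK2 19.9 and 20.65 FPKM. By CPM, HK2 stayed above HK1 in every library. The effective length of HK1 was 3265 and 3318 bases with vehicle and 2995 and 3253 bases with AICAR, which enters its FPKM. With 2 libraries against 2 an exact permutation test cannot give a two-sided p under 0.333, so the shift in shares is a description.

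PFKL gave 46.25% and 45.9% of the phosphofructokinase FPKM with vehicle and 47.95% and 49.15% with AICAR, and PFKP 33.9% and 33.2% against 32.2% and 31.3%. The shares of SLC2A1 in the transporter pair, 78.8% to 83.9% with vehicle and 80.0% to 80.2% with AICAR, overlapped. LDHB exceeded LDHA in every library, with LDHA at 38.9% to 39.45% of the dehydrogenase FPKM with vehicle and 39.5% to 39.7% with AICAR. ALDOA gave 92.95% to 93.5% of the aldolase and ENO1 99.65% to 99.7% of the enolase FPKM in all 4 libraries.

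**Figure D4:**
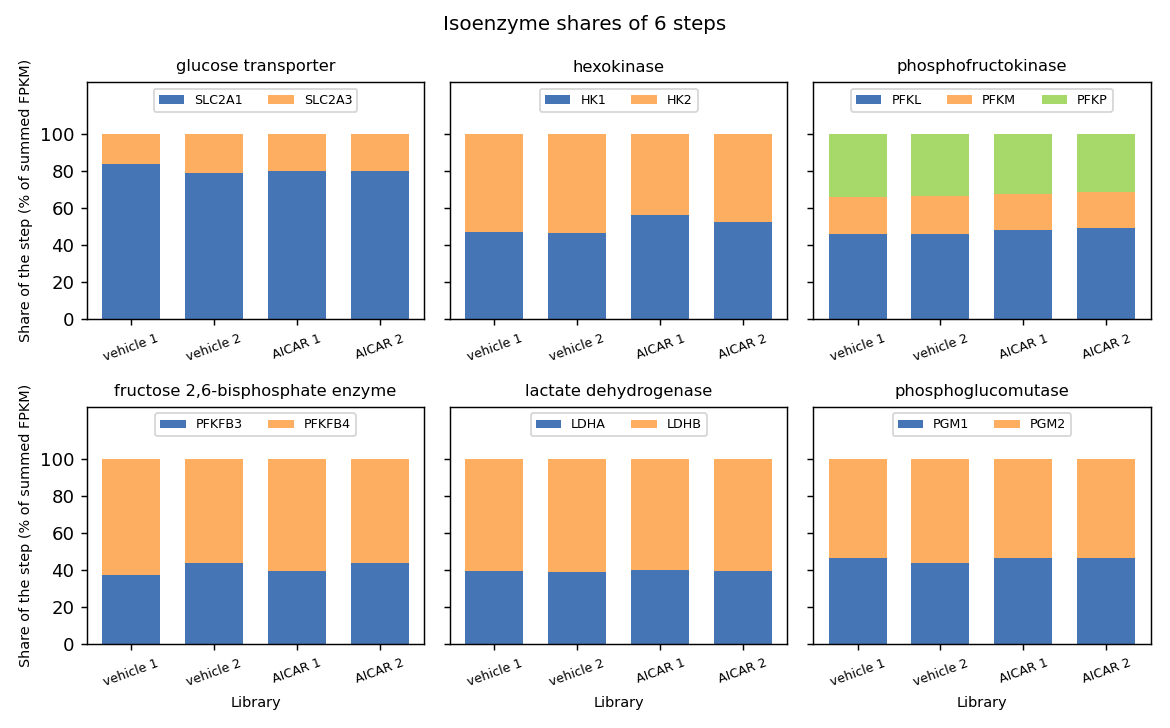
Share of each gene in the summed FPKM of its step, as stacked bars for each of the 4 libraries, for 6 steps with more than 1 member gene. The HK1 segment is larger in both AICAR libraries, at 56.2% and 52.6%, than in the vehicle libraries, while the LDHA segment stays between 38.9% and 39.7%.

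The counts and the FPKM of RPE moved in opposite directions. RPE had 27.6 and 27.5 FPKM with vehicle and 30.6 and 28.4 FPKM with AICAR, while its CPM was lower. The effective length implied by the pair of values was 1382 and 1360 bases with vehicle and 1138 and 1104 bases with AICAR. On a log2 scale centred on the median gene this is a change of -0.27, larger in size than that of 97.7% of the 7712 protein-coding genes with a mean of at least 5 FPKM. LDHA had 1365 and 1355 bases with vehicle and 1290.0 and 1278 bases with AICAR, without overlap, a centred change of -0.06 that exceeds 65.0% of genes. In RSEM output a gene's effective length depends on the estimated mix of its isoforms; the isoforms themselves were not analysed here.

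Related genes outside the 33 were read from lists of neighbouring functions. For all lists, the shares over all tested genes were 19.4% rises and 19.7% falls. Of 13 other tested genes of glucose transport, glycolysis and the pentose pathway, 2 rose and none fell. BSG, the chaperone that carries MCT1 to the membrane, had 184 and 197 CPM with vehicle and 222 and 242 CPM with AICAR (log2 fold change 0.28). PGAM5, a mitochondrial protein phosphatase of the phosphoglycerate mutase family, had a log2 fold change of 0.15.

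Of 18 tested genes of glycogen and nucleotide sugars, 7 rose and 2 fell. GYS1, the glycogen synthase outside liver, had 42.3 and 43.4 CPM with vehicle and 53.6 and 55.0 CPM with AICAR, and PYGB, a glycogen phosphorylase, rose as well, with log2 fold changes of 0.34 and 0.31. PPP1R3D, which targets protein phosphatase 1 to glycogen, fell 4.55-fold, from 4.82 and 4.41 CPM to 1.002 and 1.017 CPM, and PGM3, a mutase of the hexosamine pathway, fell 1.22-fold. Of 8 tested genes of gluconeogenesis and glycerol 3-phosphate 4 rose and none fell, led by G6PC3, a glucose 6-phosphatase (0.30), and PC, the pyruvate carboxylase (0.22).

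Among 16 tested regulators of glucose genes 5 rose and 4 fell. MYC, an activator of many glycolysis genes, had 543 and 516 CPM with vehicle and 188 and 187 CPM with AICAR. TXNIP, which promotes removal of GLUT1 from the membrane, had 63.25 and 62.5 CPM with vehicle and 22.1 and 22.3 CPM with AICAR. Their log2 fold changes were -1.497 and -1.503, the largest falls of the list. EPAS1, the hypoxia factor HIF-2α, rose from a low level of 2.12 and 2.18 CPM to 3.10 and 3.38 CPM, and USF2, an E-box factor, had a log2 fold change of 0.405.

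In the authors' deposited table, 19 of the 31 genes were higher and 1, SLC2A1, was lower at a q-value under 0.05, and all 20 were also called here. Of all genes with a q-value in the authors' deposited table, 13.3% were higher and 12.5% lower. The genes called here and not there were SLC2A3, PFKP, PFKFB3 and RPIA, whose q-values in the authors' deposited table were 0.374, 0.0655, 0.0831 and 0.0925.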

How the data were processed

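Per the submitters' processing notes, Trimmomatic 0.32, STAR 2.5.3a, RSEM 1.2.31 and DESeq2 were used with build hg19; their order and settings and the annotation are not given in the sources used here. Expected counts and FPKM per gene and library were deposited by the authors, with a log2 fold change and a q-value from their own comparison. Columns were assigned to libraries by name.

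Expected counts were rounded to whole numbers, filtered with filterByExpr (minimum count 10, minimum total 15), scaled by TMM factors and tested with edgeR 4.0.16 (R 4.3.3, two-sided quasi-likelihood test, Benjamini-Hochberg adjustment over 13626 genes, threshold 0.05). Standard errors were derived from the test's F statistic. CPM values use the TMM-scaled library sizes. The fit was tested on simulated data. Alternatives used DESeq2 1.42.0, limma 3.58.1 (pseudocount 1) and the settings named in the closing section. FPKM served for isoenzyme shares and effective lengths, the latter using each library's total count.

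The members and the lists were chosen with earlier results of these data known. Of each neighbouring list, at most 2 called genes each way were named, by size; 1 gene of these lists is not reported here. Replicates differed by more than sampling noise (mean chi-square over genes 8.60 within vehicle, 2.94 within AICAR, 39.9 and 45.9 across groups), and each library counted once. Promoter windows came from RefSeq on GRCh38.p14, not the authors' build. Figures were drawn with matplotlib 3.10.9.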

Additional observations from a re-analysis of the deposited data

How the results depend on the processing

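Of the 24 calls among the 31 genes, 12 held under every alternative tried: SLC2A1, HK1, GPI, PFKL, ALDOA, ALDOC, TPI1, GAPDH, ENO1, PKM, LDHB and TKT. With total counts alone 13 genes rose and 5 fell (median log2 fold change 0.116; 10.2% and 23.0% of all tested genes), and with a minimum mean of 10 CPM 19 rose and 5 fell (0.135; 25.3% and 28.0%). On log2(FPKM + 1) in limma, an alternative chosen after seeing the data, 12 rose and 1 fell (0.111; 4.43% and 9.46%), losing 11 calls, among them PFKFB3, PGD and TALDO1, which were kept elsewhere, and the RPE value changed sign to 0.094. Leaving out 1 library gave 16 to 21 rises, 2 to 4 falls and medians from 0.162 to 0.177, where 14.4% to 18.6% of all tested genes rose and 16.6% to 18.8% fell. With the other alternatives, RLE and upper quartile scaling, no filter, voom, log2(CPM + 1), DESeq2, protein-coding genes alone, an adjusted p under 0.01 and a block, 18 to 21 rose and 2 to 4 fell, where 8.79% to 22.6% of all tested genes rose and 9.63% to 23.3% fell.

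Values near 0 that did not pass changed sign: HK2, ENO2, BPGM and PGM2 had -0.050, -0.035, -0.050 and -0.032 with total counts alone, -0.031, -0.014, -0.031 and -0.013 with the 10 CPM minimum, and -0.060, -0.064, -0.045 and -0.004 on FPKM. Without single libraries they ran from -0.013 to 0.036 for HK2, -0.055 to 0.097 for ENO2, -0.030 to 0.052 for BPGM and -0.027 to 0.070 for PGM2. The cause of these shifts was not tested. Libraries with the same replicate number showed no shared shift (correlation of same-numbered deviations -0.05 over 13626 genes). With 2 libraries in each group this cannot tell whether the samples were handled in pairs. The replicate block gave 21 rises, 3 falls and a median of 0.175, losing SLC2A3 and adding PFKFB4. Depth limits the genes near 10 CPM, where intervals were widest.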
